A study of Homo sapiens with 12 samples.

Results

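MYC, MAX and the MXD proteins form a network of paired transcription factors, and transcripts of 10 of its genes were measured in 2 human cancer cell lines treated with the RET kinase inhibitor selpercatinib. The genes were MYC, MYCN and MYCL (the MYC side), MAX (the shared partner), MXD1, MXD3, MXD4, MXI1 and MNT (the antagonists) and MLXIP. They were found by gene symbol, each at 1 Ensembl identifier, among the 37247 genes of both tables. LC-2/ad is a lung adenocarcinoma line and TPC-1 a papillary thyroid carcinoma line, both known to carry a RET fusion. The 4 groups of 3 libraries were LC-2/ad cells after 48 h in 100 nM selpercatinib, untreated LC-2/ad parent cells, TPC-1 cells after 48 h in 100 nM selpercatinib and untreated TPC-1 parent cells. Each line is one established culture model grown with 10% fetal bovine serum, and no vehicle treatment of the parent cells is described. Nothing in the labels tells whether libraries of a group are separate cultures, so all p-values reflect the spread between libraries alone.

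MYC binds DNA only as a dimer with MAX, chiefly at the E-box sequence CACGTG, and raises transcription of genes for ribosome production, metabolism and cell division. MXD1, MXD3, MXD4, MXI1 and MNT compete for MAX at the same sites and recruit the SIN3 corepressor with its histone deacetylases. MLXIP, also called MondoA, pairs instead with the MAX-like protein MLX and responds to glucose phosphates. In many tumours MYC transcription depends on growth factor receptor and ERK signalling.

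The values were TPM, transcript shares that are scaled by transcript length and sum to 1000000 in each library. Sequencing depth cannot be read from them, and a lower share of cells with a transcript cannot be told apart from less of it per cell. Between 12554 and 14336 genes reached 1 TPM in a library. LC-2/ad libraries held NKX2-1 (105 to 141 TPM) and NAPSA (30.1 to 37.1 TPM) but nearly no surfactant gene SFTPB (at most 0.861 TPM). They also held the thyroid markers FOXE1 (34.5 to 38.4 TPM in treated and 11.3 to 12.1 TPM in parent cells) and PAX8 (19.5 to 24.6 TPM in treated and 14.0 to 16.2 TPM in parent cells). TPC-1 libraries held PAX8 (154 to 285 TPM) and FOXE1 (8.29 to 9.83 TPM), with NKX2-1 at 0. They held nearly no TG, TSHR or SLC5A5 (at most 1.42 TPM), which mark hormone-making thyroid cells. The listed lung marker KRT7 was high in both lines, at 1972 to 2824 TPM in TPC-1 and 2347 to 3458 TPM in LC-2/ad. SFTA3 was at most 0.108 TPM in TPC-1 and 41.0 to 68.8 TPM in LC-2/ad. EPCAM was at 3.73 to 4.99 TPM in treated TPC-1 and 320 to 398 TPM in LC-2/ad libraries. Of 6 markers of blood, vessel and fibroblast cells, HBB was at 0 in all 12 libraries, COL1A1 was at 23.8 to 38.7 TPM and the other 4 were at most 2.75 TPM.

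In LC-2/ad the drug was accompanied by less MYC and MXD3 and much more MXD4 transcript. MYC stood at 112, 119.9 and 116 TPM in the treated libraries, against 185, 178 and 184 TPM in the parent libraries. MXD4, an antagonist described in mice in cells that leave the cell cycle, stood at 69.9, 71.0 and 71.5 TPM in treated cells, against 16.8, 15.4 and 17.1 TPM in parent cells. MXD3, the antagonist that in mice is found in proliferating progenitors, stood at 16.1, 15.7 and 19.7 TPM in treated cells, against 57.0, 57.4 and 50.8 TPM in parent cells. For each of these genes the treated and parent values did not overlap, and the libraries of a group lay close together. Of all genes tested in LC-2/ad 35.3% separated upward and 27.6% downward in this way. In TPC-1 none of the 8 tested members passed the test, where 4.96% of all tested genes did.

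**Figure D1:**
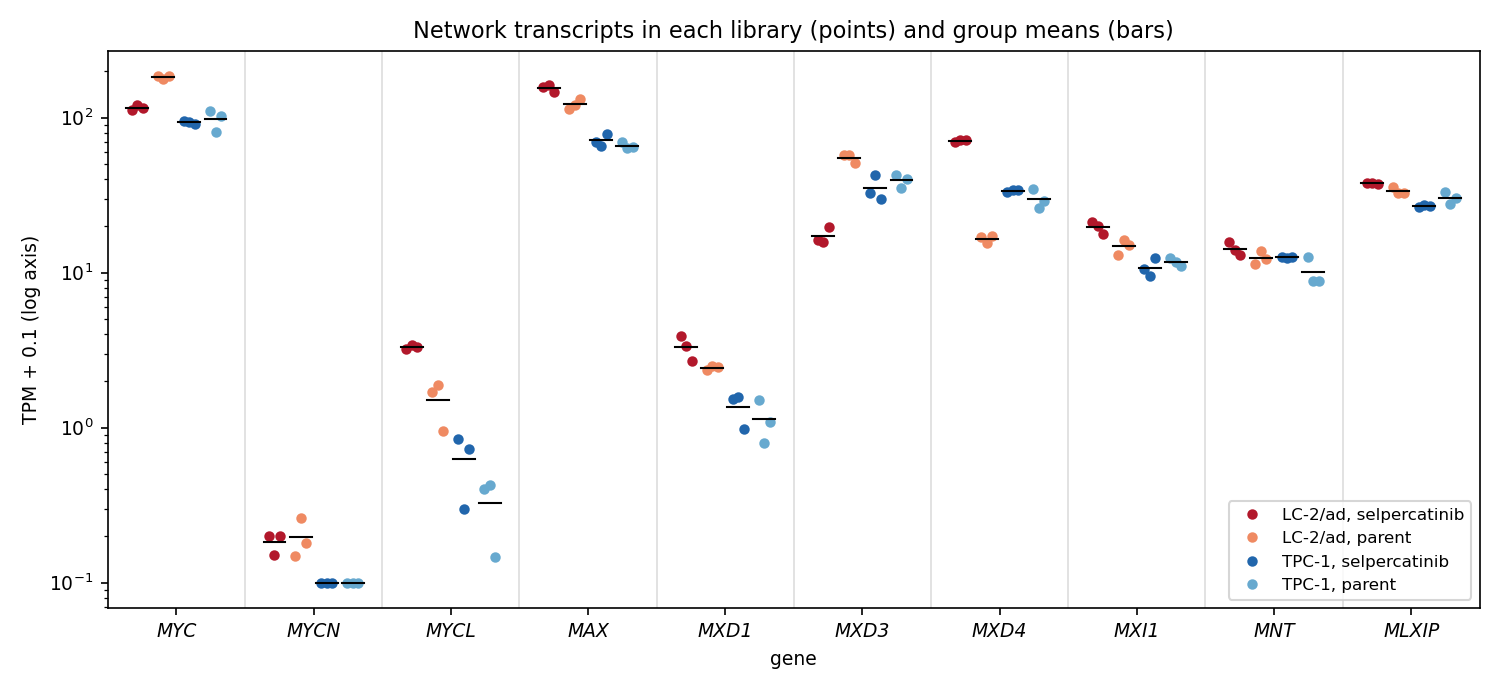
TPM plus 0.1 of the 10 network genes on a log axis, with 1 point per library (n = 3 per group) and a bar at each group mean. MXD4 and MXD3 separate widely between treated and parent LC-2/ad libraries, with means of 70.8 against 16.4 TPM and 17.2 against 55.0 TPM, while the TPC-1 groups lie close together.

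The fit compared log2(TPM + 1) between treated and parent libraries of a line with limma, over all genes with a mean of at least 1 TPM, and called a gene at a Benjamini-Hochberg adjusted p under 0.05. A log2 fold change below is treated minus parent on that scale, with the standard error (SE) after the sign ±. Of the 10 members 9 could be tested in LC-2/ad and 5 were higher and 2 lower. Over all 14118 genes tested in that line 30.6% were called higher and 24.4% lower, or 55% in all, so a call by itself sets no gene apart there. The share of calls that were higher depended on scaling, at 55.6%, against 44.4% after median-of-ratios scaling and 64.8% with mitochondrial genes removed. Mitochondrial transcripts made up 14.0% to 15.0% of the TPM in treated LC-2/ad libraries and 9.72% to 9.82% in parent ones. In 8 of the 9 members treated and parent values did not overlap, 6 higher and 2 lower, where 35.3% and 27.6% of all tested genes separated in these directions. The median log2 fold change of the 9 was 0.33, beside 0.07 for all genes tested.

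On the MYC side, MYC (ENSG00000136997) fell by 0.65 ± 0.04 on the log2 scale in LC-2/ad (limma adjusted p = 8.24e-06), and its mean level was 1.57-fold lower. MYCL, the family member first found in small cell lung cancer, stood at 3.12, 3.29 and 3.21 TPM in treated cells and at 1.60, 1.79 and 0.852 TPM in parent cells. It rose by 0.82 ± 0.18 (adjusted p = 0.00601), at a level that left MYC the main family member. MYCN, the family member amplified in neuroblastoma, lay at 0.0496 to 0.0996 TPM in treated and 0.0493 to 0.161 TPM in parent LC-2/ad cells and was too low to test. The summed MYC-side level was nearly all MYC, with 119 ± 4.01 TPM in treated and 184 ± 3.64 TPM in parent cells (mean ± SD, n = 3 each).

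MAX, the partner that every MYC and MXD protein needs for binding DNA, stood at 156, 163 and 147 TPM in treated and 113, 120.3 and 132 TPM in parent LC-2/ad cells. All treated values lay above all parent values, and MAX rose by 0.35 ± 0.06 (adjusted p = 0.00236). MYC and MAX moved in opposite directions. The ratio of MYC to MAX transcripts was 0.718, 0.737 and 0.787 in treated libraries, against 1.63, 1.48 and 1.40 in parent libraries. MAX was the most abundant member in treated cells and MYC in parent cells, in both cases with no overlap between the pair.

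Among the antagonists, MXD4 (ENSG00000123933, chromosome 4, 2247432 to 2262294, minus strand, GENCODE 29 on GRCh38) rose by 2.04 ± 0.06 (limma adjusted p = 2.98e-07), and its mean level was 4.31-fold higher. That was the 41st largest rise among the 14118 genes tested in LC-2/ad. MXD3 (ENSG00000213347, chromosome 5, 177301461 to 177312757, minus strand) fell by 1.63 ± 0.09 (adjusted p = 6.05e-06), a mean level 3.21-fold lower and the 129th largest fall. MYC ranked 1086th among the falls. The annotated exons of MXD3 overlap those of 2 protein-coding neighbours, RAB24 on the same strand (18.0% of the MXD3 exon length) and PRELID1 on the opposite strand (22.5%), so its value is uncertain as far as reads were shared. RAB24 rose by 0.74 ± 0.07 in LC-2/ad, and PRELID1 fell by 0.62 ± 0.03, less than MXD3 on the log2 scale. PRELID1 stood at 203 ± 3.54 TPM in treated and 313 ± 3.95 TPM in parent cells (mean ± SD, n = 3 each). In TPM PRELID1 fell by more than MXD3, whose means were 17.2 and 55.0 TPM. The part of shared reads in the MXD3 change was not tested.

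The promoter windows of these 2 genes are shown because they are the members that changed most, in opposite directions. They are RefSeq windows on GRCh38.p14, from 250 bases before to 50 bases after the start, 5′ to 3′ along the gene, with matches to CACGTG in capitals. The window of MXD4 is chr4:2262060-2262359 and that of MXD3 is chr5:177312703-177313002, both on the minus strand.
MXD4: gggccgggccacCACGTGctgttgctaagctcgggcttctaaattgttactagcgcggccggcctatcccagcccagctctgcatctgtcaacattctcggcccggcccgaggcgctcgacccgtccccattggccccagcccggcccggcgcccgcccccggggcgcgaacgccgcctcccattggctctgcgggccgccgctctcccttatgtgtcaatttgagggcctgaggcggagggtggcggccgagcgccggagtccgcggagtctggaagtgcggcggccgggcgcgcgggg
MXD3: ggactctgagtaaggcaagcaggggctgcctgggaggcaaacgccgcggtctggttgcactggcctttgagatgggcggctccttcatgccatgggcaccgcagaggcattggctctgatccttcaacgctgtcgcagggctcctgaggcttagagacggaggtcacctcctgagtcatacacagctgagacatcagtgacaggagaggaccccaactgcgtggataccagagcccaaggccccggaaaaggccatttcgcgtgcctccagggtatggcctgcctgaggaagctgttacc
The MXD4 window holds 1 match, at -238 from the start. The MXD3 window holds these letters nowhere, which says nothing about binding of any factor. Of all 35116 RefSeq windows of this length 7.26% hold the sequence, which reads the same on both strands. Windows were matched for 9 of the 10 members, all but MYC, 12 windows in all, and CACGTG was in 2 of them, those of MXD4 and of MNT (a match at -193). Both strands were also searched for the E2F-type sequences TTTCCCGC and TTTGGCGC and the FOXO-type sequence GTAAACA. The E2F type was in 1 member window, that of MYCN, and in 2.27% of all windows, while the FOXO type was in 2 of the 3 MXI1 windows and in 3.42% of all windows.

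MXI1, an antagonist and a known FOXO target, stood at 21.0, 20.0 and 17.5 TPM in treated and 13.0, 16.0 and 14.9 TPM in parent LC-2/ad cells. It rose by 0.39 ± 0.10 (adjusted p = 0.0117) with no overlap between the groups. MXD1, the founding MXD gene, lay between 2.60 and 3.81 TPM in treated and 2.26 and 2.39 TPM in parent cells, a log2 fold change of 0.33 ± 0.15 (adjusted p = 0.0877), and passed without treated library 3 (0.44, adjusted p = 0.0382), with mitochondrial genes removed (adjusted p = 0.0497) and without a variance trend (adjusted p = 0.0449). Its exons overlap SNRNP27 over 3.73% of their length. MNT, the antagonist present in most cell types, lay between 12.9 and 15.7 TPM in treated and 11.2 and 13.7 TPM in parent cells. Its log2 fold change was 0.18 ± 0.10 (adjusted p = 0.164), and its groups overlapped. The exons of MNT overlap an antisense gene, AC006435.1, over 12.2% of their length.

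MLXIP stood at 37.5, 37.8 and 37.4 TPM in treated and 35.5, 32.6 and 32.5 TPM in parent LC-2/ad cells. It rose by 0.16 ± 0.05 (adjusted p = 0.0369), a small call that ended after median-of-ratios scaling (0.07, adjusted p = 0.316), without a variance trend (adjusted p = 0.0519) and on leaving out any 1 of 5 libraries (adjusted p up to 0.111). Without parent library 1 it held.

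**Figure D2:**
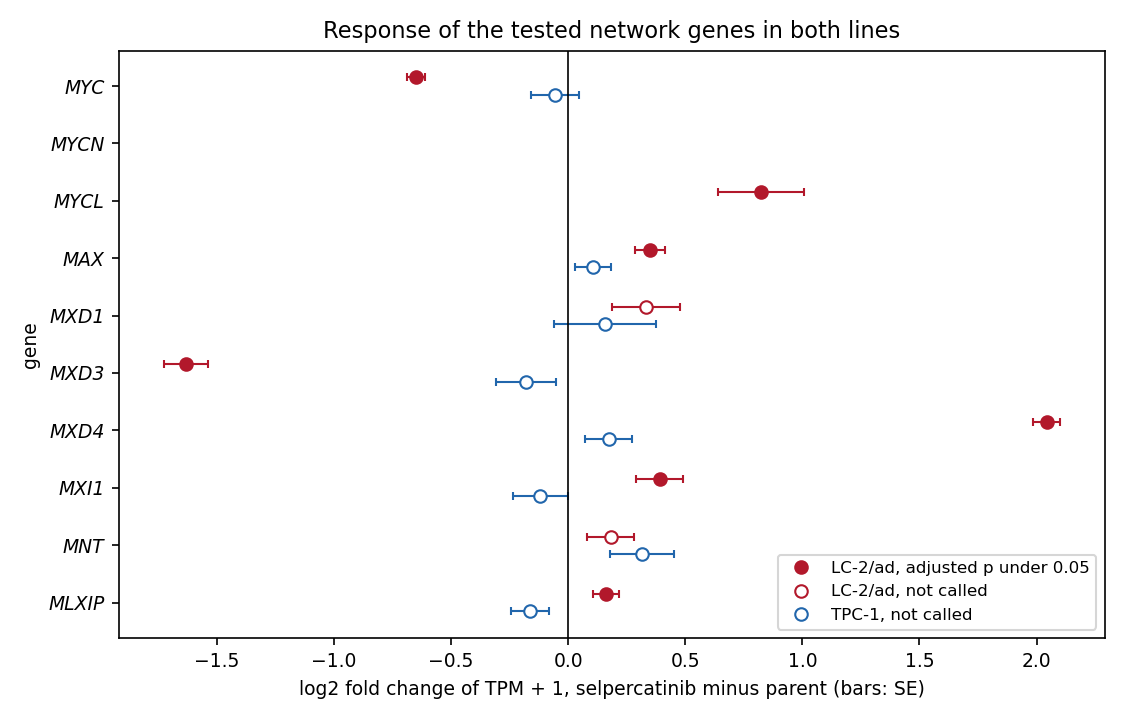
Log2 fold change of TPM + 1, selpercatinib minus parent, with SE bars, for the members tested in LC-2/ad (9) and TPC-1 (8). Filled points passed an adjusted p of 0.05. MXD4 (2.04) and MXD3 (-1.63) in LC-2/ad lie farthest from 0, and all TPC-1 points are open.

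The makeup of the antagonist transcripts in LC-2/ad differed more between the groups than their sum did. MXD3 made up 12.7%, 12.7% and 15.8% of the summed MXD1, MXD3, MXD4, MXI1 and MNT level in treated libraries, against 56.9%, 54.7% and 52.2% in parent libraries. MXD4 made up 55.3%, 57.4% and 57.6% in treated libraries, against 16.7%, 14.7% and 17.6% in parent libraries. The ratio of MXD4 to MXD3 was 3.63 to 4.52 in treated and 0.269 to 0.338 in parent cells. The summed antagonist level was 125 ± 1.45 TPM in treated and 101 ± 3.83 TPM in parent cells (mean ± SD, n = 3 each).

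Set against that sum, the MYC side stood at 0.911, 0.996 and 0.958 times the antagonists in treated LC-2/ad libraries and at 1.86, 1.71 and 1.90 times in parent libraries. The groups did not overlap, and a ratio within a library does not depend on how libraries are scaled. With MYC alone over MXD1, MXD3, MXD4 and MXI1 the means were 1.05 in treated and 2.06 in parent cells. These ratios describe transcripts, not dimers, and no test was made on sums over chosen genes.

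**Figure D3:**
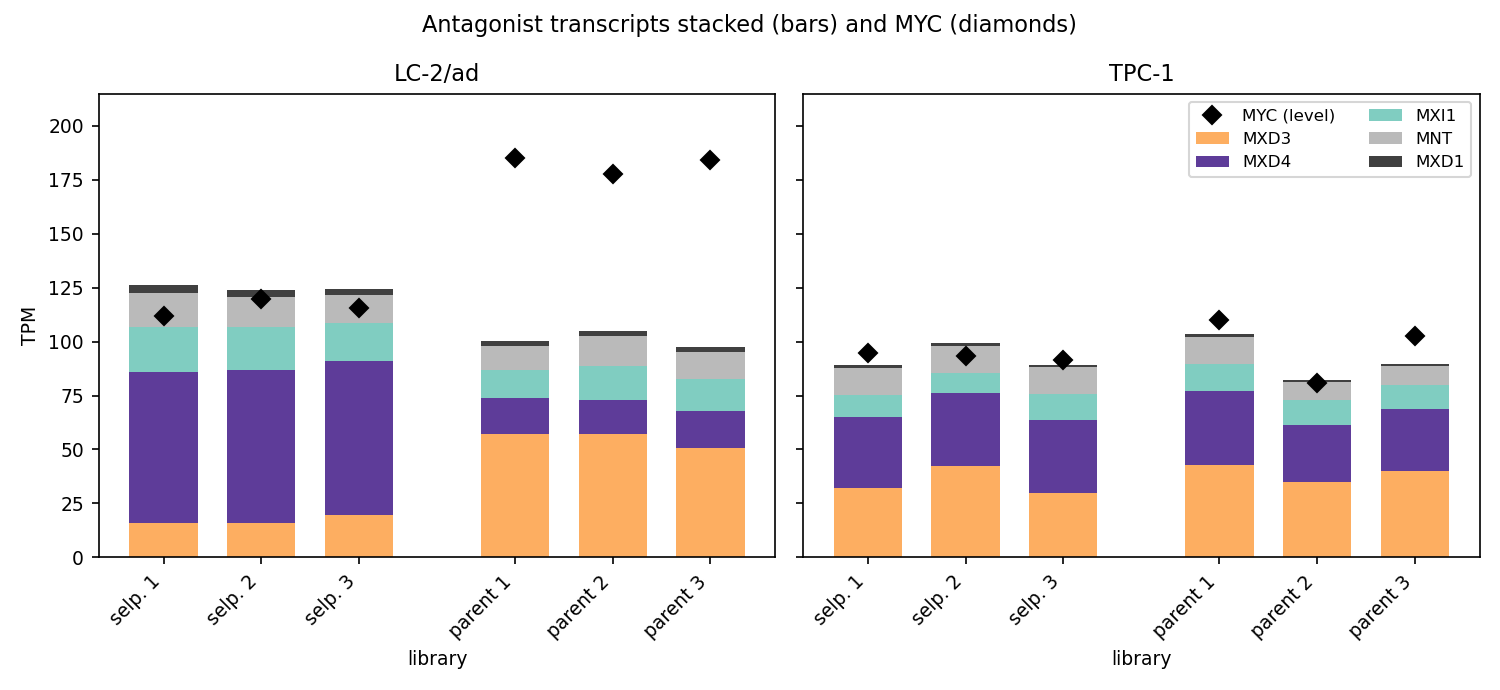
TPM of the 5 antagonists stacked per library, with MYC as a diamond, in LC-2/ad (left) and TPC-1 (right), treated libraries left of parent libraries. In treated LC-2/ad libraries MYC (112 to 119.9 TPM) lies near the top of the stack, which is mostly MXD4, and in parent libraries it lies far above a stack that is mostly MXD3.

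In order of mean level in treated LC-2/ad cells, MAX and MYC were followed by MXD4, MLXIP, MXI1, MXD3, MNT, MXD1, MYCL and MYCN. The neighbours MXI1 and MXD3 overlapped there, as did MXD1 and MYCL. In parent LC-2/ad cells the order was MYC, MAX, MXD3, MLXIP, MXD4, MXI1, MNT, MXD1, MYCL and MYCN, with overlap between MXD4 and MXI1 and between MXI1 and MNT. In treated TPC-1 cells the order was MYC, MAX, MXD3, MXD4, MLXIP, MNT, MXI1, MXD1, MYCL and MYCN, and MXD3 overlapped MXD4. In TPC-1 parent cells it was MYC, MAX, MXD3, MLXIP, MXD4, MXI1, MNT, MXD1, MYCL and MYCN, with overlap between MLXIP and MXD4 and between MXI1 and MNT. The tables of the lines were scaled separately, so levels are not tested between them.

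In TPC-1 no tested network gene passed the test, at changes of -0.18 to 0.32. MYC stood at 94.8, 93.5 and 91.2 TPM in treated libraries, against 110.2, 80.7 and 102 TPM in parent libraries, whose spread covered the treated values. Its log2 fold change was -0.06 ± 0.10 (limma adjusted p = 0.801), and 0.035 without parent library 1. MXD4 stood at 32.8, 33.9 and 33.8 TPM in treated and 34.5, 26.0 and 28.8 TPM in parent cells (0.17 ± 0.10, adjusted p = 0.362). MXD3 stood at 32.3, 42.2 and 29.8 TPM in treated and 42.7, 35.1 and 40.0 TPM in parent cells (-0.18 ± 0.13, adjusted p = 0.463). The treated and parent values of all 3 genes overlapped.

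The shared partner MAX lay at 65.2 to 78.0 TPM in treated and 63.8 to 69.1 TPM in parent cells (0.11 ± 0.08, adjusted p = 0.463). MXI1 lay at 9.36 to 12.2 TPM in treated and 10.9 to 12.4 TPM in parent cells, and MXD1 at 0.873 to 1.47 TPM in treated and 0.696 to 1.40 TPM in parent cells. MNT lay at 12.4 to 12.5 TPM in treated and at 12.4, 8.65 and 8.73 TPM in parent cells. Its log2 fold change of 0.32 ± 0.14 had an adjusted p of 0.225, but 0.0377 without parent library 1, the one library that lay with the treated ones. MLXIP was at 26.4 to 27.3 TPM in treated and 27.7 to 32.9 TPM in parent cells, the only TPC-1 member whose groups did not overlap (-0.16 ± 0.08, adjusted p = 0.288). MYCL, at most 0.744 TPM in treated and 0.326 TPM in parent cells, was too low to test, and MYCN was listed at 0 in all 6 libraries. By limma 0 of the 8 tested members were called in TPC-1 and 1 had an unadjusted p under 0.05, where 4.96% of 12825 genes were called, 3.75% higher and 1.21% lower. Of those calls 75.6% were higher, against 62.3% after median-of-ratios scaling. Of all genes tested there 16.6% separated without overlap upward and 9.23% downward.

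The balance of MYC side to antagonists in TPC-1 was 1.07, 0.943 and 1.03 in treated libraries, against 1.07, 0.988 and 1.14 in parent libraries, which overlapped. The treated LC-2/ad ratios of 0.911 to 0.996 lay in part within that TPC-1 range, and the LC-2/ad parent ratios of 1.71 to 1.90 lay above it.

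Whether the lines differed in response was tested with an interaction term fitted to the 12 libraries together, which gives the TPC-1 change less the LC-2/ad change. Of 8 tested members 2 had a higher and 3 a lower difference, where 22.2% and 14.4% of 11996 genes did, or 36.6% in all. Of the differences called 60.6% were higher, against 47.3% with mitochondrial genes removed. MXD4 differed by -1.87 ± 0.12 (limma adjusted p = 1.91e-07), the 29th most negative difference, and MXD3 by 1.45 ± 0.18 (adjusted p = 3.73e-05). MYC differed by 0.59 ± 0.12 (adjusted p = 0.00211) and MLXIP by -0.32 ± 0.09 (adjusted p = 0.017). MXI1 differed by -0.51 ± 0.16 (adjusted p = 0.0218), but its adjusted p was 0.0562 without LC-2/ad parent library 1 or treated library 1 and 0.0522 without treated TPC-1 library 2. MAX differed by -0.24 ± 0.10 (adjusted p = 0.0852) and passed without LC-2/ad parent library 3 (0.0425), without treated TPC-1 library 3 (0.0252) or with mitochondrial genes removed (0.025). For MXD1 (-0.17 ± 0.25) and MNT (0.14 ± 0.18) the adjusted p was 0.63 and 0.595.

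Genes around the network were described by lists drawn from textbook roles, chosen with earlier results of these data known. Of 34 genes that MYC is known to activate, 33 were tested in LC-2/ad and 31 fell, with 0 higher and a median log2 fold change of -0.75, against 24.4% of all tested genes lower and an overall median of 0.07. POLR1B and APEX1 did not pass. Over all alternatives between 31 and 33 were lower and at most 1 higher. With the filter at a mean TPM of at least 5, 31 of 33 were lower, where 3275 of 10945 genes were. LDHA, lactate dehydrogenase, stood at 863 ± 13.8 TPM in treated and 2303 ± 112 TPM in parent cells (mean ± SD, n = 3 each), a fall of 1.41 ± 0.04 on the log2 scale. NME1, a nucleoside diphosphate kinase, stood at 134 ± 0.322 TPM in treated and 334 ± 2.15 TPM in parent cells (-1.31 ± 0.03). The values of LDHA and NME1 are uncertain as far as reads fit near-identical copies. CDC25A, a phosphatase that activates cyclin-dependent kinases, changed by -1.18 ± 0.16 and NOP56, a nucleolar protein of ribosome assembly, by -1.08 ± 0.07 (adjusted p at most 0.000538 for these 4).

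In TPC-1 the same list had a median of -0.01, beside 0.05 for all genes tested. By limma 1 of 33 genes fell, against 1.21% of all tested genes, which was LDHA (-0.30 ± 0.07, adjusted p = 0.0495). LDHA lost that call in 10 of 14 alternatives (adjusted p up to 0.219), 5 of them with a library left out. In either direction 10 of the 33 had an unadjusted p under 0.05. Of these TFRC (0.30 ± 0.10) and CDC25A (0.24 ± 0.10) were higher and the others lower. The share of all tested genes at that unadjusted p was not counted. The difference between the lines was called for 30 of the 33 genes, all higher in TPC-1 minus LC-2/ad, where 22.2% of all tested genes were. For LDHA it was 1.11 ± 0.09 (adjusted p = 1.15e-06).

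**Figure D4:**
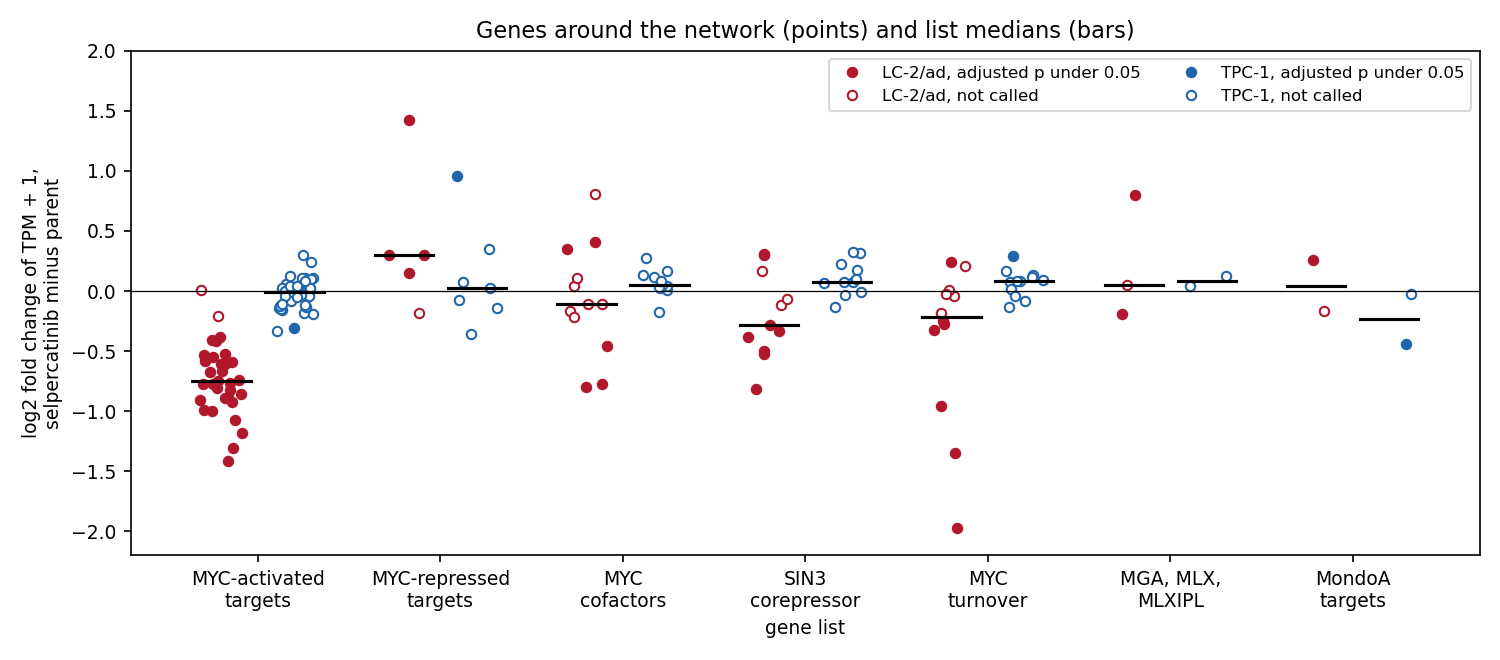
Log2 fold change of TPM + 1, selpercatinib minus parent, for each tested gene of 7 lists (points, filled at an adjusted p under 0.05) in LC-2/ad and TPC-1, with list medians as bars. The MYC-activated targets in LC-2/ad lie below 0 around a median of -0.75, apart from 1 gene, and those in TPC-1 around -0.01.

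Promoter windows were matched for 29 of the 34 activated targets, 38 windows in all, and 39.5% of these held CACGTG, against 7.26% of all windows. The genes are known MYC targets, so that share is no independent result. The 15 tested genes with a match had a median log2 fold change of -0.75 in LC-2/ad, with 14 lower, and the 14 without one had a median of -0.72, with 13 lower. In TPC-1 the medians were -0.11 with a match, with 1 lower, and 0.03 without one, with 0 lower, and the difference was not tested. Windows are shown for the 2 targets with the largest falls and for CDK4, the G1 cell cycle kinase, chosen after the values were seen for its 3 matches. APEX1, a DNA repair enzyme, also had 3 matches, at -105, -44 and -23, and was not called in LC-2/ad (0.01 ± 0.03, limma adjusted p = 0.871). CDK4 stood at 112 ± 5.95 TPM in treated and 198 ± 7.12 TPM in parent LC-2/ad cells (-0.83 ± 0.05, adjusted p = 7.21e-06). For LDHA 1 of 2 listed windows is shown, and the other (chr11:18396101-18396400) holds no match. The windows are chr11:18394313-18394612 (plus strand, matches at -185 and -87), chr17:51153309-51153608 (plus strand, match at 35) and chr12:57752261-57752560 (minus strand, matches at -216, -196 and -101), with CACGTG in capitals.
LDHA: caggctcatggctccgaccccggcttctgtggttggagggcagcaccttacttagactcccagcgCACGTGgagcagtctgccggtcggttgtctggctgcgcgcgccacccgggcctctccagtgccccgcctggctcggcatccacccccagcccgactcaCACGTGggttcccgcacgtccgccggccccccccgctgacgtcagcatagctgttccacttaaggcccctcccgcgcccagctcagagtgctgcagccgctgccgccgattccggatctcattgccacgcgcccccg
NME1: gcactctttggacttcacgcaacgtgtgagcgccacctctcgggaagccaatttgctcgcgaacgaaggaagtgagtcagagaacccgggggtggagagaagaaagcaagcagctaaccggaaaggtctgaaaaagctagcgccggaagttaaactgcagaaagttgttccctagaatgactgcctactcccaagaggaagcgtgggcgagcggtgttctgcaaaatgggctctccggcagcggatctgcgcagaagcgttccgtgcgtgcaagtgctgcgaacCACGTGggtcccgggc
CDK4: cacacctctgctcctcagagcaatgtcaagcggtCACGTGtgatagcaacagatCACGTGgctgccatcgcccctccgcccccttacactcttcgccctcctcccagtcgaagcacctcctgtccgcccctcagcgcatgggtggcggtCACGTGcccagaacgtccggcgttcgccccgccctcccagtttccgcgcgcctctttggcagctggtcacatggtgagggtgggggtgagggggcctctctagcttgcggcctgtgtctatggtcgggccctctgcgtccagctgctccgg

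Of 7 genes that MYC is known to repress, 5 were tested in LC-2/ad and 4 rose, against 30.6% of all tested genes, with a median of 0.30. NDRG2, a growth-restraining gene, stood at 66.0 ± 3.84 TPM in treated and 24.0 ± 0.973 TPM in parent cells (1.42 ± 0.06). GADD45A (0.30 ± 0.05), a stress-induced growth arrest gene, and CDKN1B (0.30 ± 0.07), a cyclin-dependent kinase inhibitor, rose less. NDRG1 (0.15 ± 0.05, adjusted p = 0.0282) lost its call after median-of-ratios scaling (0.366) and on leaving out any 1 of 5 libraries (up to 0.0949). CDKN1A, another cyclin-dependent kinase inhibitor, did not pass and had a negative change (-0.18 ± 0.11, limma adjusted p = 0.176). In TPC-1 1 of 7 rose, against 3.75% of all tested genes, with a list median of 0.03 beside 0.05 overall. It was GADD45A (0.96 ± 0.16, adjusted p = 0.0112), which lost its call without the filter (0.0854), without a variance trend (0.0507) and without parent library 3 (0.0526). In either direction 3 of the 7 had an unadjusted limma p under 0.05. Beside GADD45A these were CDKN2B, higher (0.35 ± 0.13, adjusted p = 0.18), and NDRG1, lower (-0.36 ± 0.11, adjusted p = 0.0999). For NDRG1 the difference, TPC-1 minus LC-2/ad, was -0.51 ± 0.13 (limma adjusted p = 0.00855).

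Genes that handle MYC and the antagonists were called in LC-2/ad at shares to be read against 24.4% lower, 30.6% higher and 55% in all over the genes tested, whose median was 0.07. Of 12 genes of MYC protein turnover 6 fell and 1 rose, with a median of -0.22, so the calls in all were near that background. AURKA, a mitotic kinase that stabilises MYCN protein, stood at 13.1 ± 1.20 TPM in treated and 54.0 ± 1.46 TPM in parent cells (-1.97 ± 0.07). CIP2A, an inhibitor of the phosphatase that destabilises MYC, changed by -1.35 ± 0.10, the ubiquitin ligase component SKP2 by -0.96 ± 0.08 and the phosphatase subunit PPP2CA by -0.32 ± 0.03. Of 12 MYC cofactors 3 fell and 2 rose (7 lower after median-of-ratios scaling), with a median of -0.11, which is near the background for falls and below it in all. The helicase-like RUVBL1 (-0.80 ± 0.05) and RUVBL2 (-0.77 ± 0.06) and the chromatin adaptor WDR5 (-0.45 ± 0.05) fell, and ZBTB17, the MIZ1 partner through which MYC represses, rose by 0.41 ± 0.07. Of 11 SIN3 corepressor genes 6 fell and 2 rose, with a median of -0.28 and with SAP30 (-0.81 ± 0.11), RBBP4 (-0.52 ± 0.04), RBBP7 (-0.50 ± 0.04) and HDAC1 (-0.38 ± 0.05) as examples (limma adjusted p at most 0.00142 for the genes named here).

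In TPC-1 1 gene of these 3 lists was called, against 4.96% of all tested genes, PPP2CA (0.29 ± 0.07, adjusted p = 0.0443), and only 4 of its 14 alternatives kept that call, with an adjusted p of up to 0.16. For the cofactors ZBTB17 was at 0.27 ± 0.16 and SMARCB1 at -0.17 ± 0.30, and for the corepressor ARID4B was at 0.32 ± 0.12 and SAP30 at 0.32 ± 0.08. By limma 0 of the 12 cofactors were called, with 0 at an unadjusted p under 0.05, and 0 of the 11 corepressor genes, with 2 at an unadjusted p under 0.05. SAP30 passed at a mean TPM of at least 5 (adjusted p = 0.0499) and without parent library 1 (0.041).

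TXNIP was called in opposite directions in the lines. TXNIP, the inhibitor of glucose uptake that MLXIP activates, stood at 114 ± 4.28 TPM in treated and 95.3 ± 3.23 TPM in parent LC-2/ad cells, a rise of 0.26 ± 0.05 (adjusted p = 0.00191). In TPC-1 it stood at 52.7 ± 3.39 TPM in treated and 72.0 ± 6.91 TPM in parent cells, where it fell by 0.44 ± 0.08 on the log2 scale (adjusted p = 0.0197). That TPC-1 call was lost without the filter (0.0828), without a variance trend (0.0713) and without parent library 2 (0.0632) or treated libraries 1 (0.0627) and 2 (0.0695). The difference, TPC-1 minus LC-2/ad, was -0.70 ± 0.10 (limma adjusted p = 0.000121). ARRDC4, the other MLXIP target listed, was not called in either line. MLXIPL, the paralog of MLXIP, averaged 3.49 ± 0.967 TPM in treated and 1.62 ± 0.785 TPM in parent LC-2/ad cells (SD, n = 3 each), a limma change of 0.80 ± 0.25 (adjusted p = 0.0263). MLX itself changed by -0.19 ± 0.06 (adjusted p = 0.0319). The MLXIPL call ended in 4 alternatives (adjusted p up to 0.0863) and the MLX call in 8 (up to 0.162). MGA, a large MAX partner, was not called in LC-2/ad, and neither MGA (0.13 ± 0.16) nor MLX (0.04 ± 0.08) was called in TPC-1.

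The genes most like MYC over the 12 libraries, each centred within its line and over 8916 genes with a mean of at least 5 TPM in both lines, were BMS1, a factor of ribosome assembly, RPE, an enzyme of the pentose phosphate pathway, and NUP50, a nuclear pore protein. Their correlations with MYC were 0.978, 0.977 and 0.975, and 0.934, 0.858 and 0.914 within the 6 TPC-1 libraries. The genes most like MXI1 were VAMP8 (0.937), EXOC4 (0.933) and FAM120AOS (0.930). Those most like MXD3 were FOSL1 (0.989), PPAT (0.988) and KIF22 (0.988), and those most like MXD4 were GAA (0.994), HLA-E (0.994), whose value in the MHC region is uncertain, and YPEL3 (0.994). MXD3 and MXD4 were added after the values were seen. Within the 6 TPC-1 libraries the correlations were 0.994, 0.961 and 0.840 for the MXI1 genes, 0.912, 0.831 and 0.881 for the MXD3 genes and 0.744, 0.636 and 0.953 for the MXD4 genes, in the same order. The values over 12 libraries include the split between treated and parent LC-2/ad libraries, the genes were picked for them, and all are a description only.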

How the data were processed

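The authors deposited TPM per gene and library, separately for each line, and every column sums to 1000000. Per the submitters' processing notes bcl2fastq 2.20.0, Salmon and GRCh38 were used, without stated roles. The annotation and the summing of transcripts to genes are not given in the sources used here. TPM keep no depth, so precision is given by the spread between libraries. Symbols were matched for 34436 of 37247 identifiers.

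Each line was fitted with limma 3.58.1 in R 4.3.3 (eBayes with trend) on log2(TPM + 1) after dropping genes whose mean TPM in the line was below 1, two-sided, called at a Benjamini-Hochberg adjusted p under 0.05. The lines were compared by an interaction term. The fits were also run on simulated data with independent noise and few changed genes. That setting does not cover a change as broad as in LC-2/ad, where 55% of genes were called. Alternatives changed the pseudocount (0.1, 5), the filter (none, 5), the scaling, the variance trend and the replicate block, or left out 1 library. All 10 members were named, with up to 4 called genes of each list and line with the largest change (2 where none was called). CDK4, RAB24, PRELID1, POLR1B, APEX1, ARRDC4, SNRNP27, TFRC, CDKN1A and CDKN2B were named after their values were seen, as was NDRG1 in TPC-1. The members, lists and tests were chosen with earlier results of these data known. Exon overlaps came from GENCODE 29. Python 3.11.15, pandas 2.3.3, numpy 2.4.6, matplotlib 3.10.9 and the R package data.table (version 1.17.8) were also used.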

Additional observations from a re-analysis of the deposited data

Results flagged for a closer look

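The response differed between the lines, by the limma interaction term (the TPC-1 change less the LC-2/ad change, adjusted p under 0.05), for 36.6% of the 11996 genes tested, among them 30 of 33 MYC-activated targets and 3 of 5 MYC-repressed targets. Given here are the 5 network genes called and the 4 surrounding genes that were called in each line on its own. The values were -1.87 for MXD4, 1.45 for MXD3, 0.59 for MYC, -0.51 for MXI1 and -0.32 for MLXIP. For LDHA the difference was 1.11 and for TXNIP -0.70, and TXNIP was called in opposite directions, higher in LC-2/ad and lower in TPC-1. The difference was 0.66 for GADD45A, called higher in both lines, and 0.62 for PPP2CA, called lower in LC-2/ad and higher in TPC-1. Mitochondrial transcripts also moved differently, with 14.0% to 15.0% of the TPM in treated and 9.72% to 9.82% in parent LC-2/ad libraries, against 5.83% to 6.82% in treated and 6.41% to 7.56% in parent TPC-1 libraries. With those genes removed the 5 network genes, LDHA and TXNIP kept the direction and the call of their difference. Groups of 3 libraries are too small for a test of single outlying libraries, and refits with 1 library left out are given below.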

How the results depend on the processing

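The 25 results on network genes were recomputed 394 times in all, and 375 kept their direction and side of the threshold, 11 lost a call, 7 gained one and 1 changed sign. MXD4, MXD3, MYC, MAX and MXI1 kept their LC-2/ad calls under every alternative. Their changes ranged over 1.82 to 2.13 for MXD4, -1.73 to -1.44 for MXD3 and -0.74 to -0.57 for MYC. MYCL kept its call in the 13 alternatives that tested it, and the filter at a mean TPM of 5 left it out. The sign of the uncalled MYC change in TPC-1 varied, between -0.19 and 0.035 with a library left out. The uncalled changes of SMARCB1 (-0.47 to 0.21 with a library left out, the highest without treated library 1) and MLX (-0.011 after median-of-ratios scaling) in TPC-1 also changed sign. The cause was not tested. In TPC-1 the genes called over the whole table numbered 481 higher and 155 lower, against 203 and 69 without the filter, 266 and 90 without a variance trend and 420 and 254 after median-of-ratios scaling. Leaving out 1 library gave 222 to 676 higher and 70 to 139 lower, and 0 to 1 network genes higher. The counts fell by over 1.5 times without parent libraries 2 (242 and 95) or 3 (222 and 70) or treated libraries 1 (236 and 99) or 2 (254 and 85). In LC-2/ad leaving out 1 library gave 4 to 5 network genes higher. For MYC alone over MXD1, MXD3, MXD4 and MXI1 the balance was 1.05 in treated and 2.06 in parent LC-2/ad cells and 1.17 in treated and 1.19 in parent TPC-1 cells. The replicate numbers did not pair the libraries (correlations of -0.05 to 0.05 between deviations of libraries with the same number). With the replicate block 4095 genes were higher and 3262 lower in LC-2/ad and 426 and 116 in TPC-1, and it ended the calls of MLXIP (adjusted p = 0.0674), NDRG1 (0.0663) and MLX (0.0672) in LC-2/ad and of LDHA (0.0847) and PPP2CA (0.0592) in TPC-1. Of the treated libraries only TPC-1 library 1 correlated best with the parent library of its own number. The list counts under the alternatives were computed after seeing the data. Depth is unknown, so low genes such as MYCN, MYCL and MXD1 are limited by counting error that cannot be given.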
